A study of Mus musculus with 4 samples.

Results

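Neurog1, Neurod1, Nhlh1, Nhlh2, Hes6, Hes1 and Hey1 are 7 basic helix-loop-helix (bHLH) genes, chosen by name as proneural factors, their downstream relatives and members of the Hes and Hey families, out of 22399 genes listed in the deposited matrices. All 7 were measured in single cells of the main olfactory epithelium. The mice were C57BL/6J wild types, 3 months old, and gave 2 libraries from females (female 1 and female 2) and 2 from males (male 1 and male 2). Cells were captured in droplets and the start of each transcript was read, so that each count is a unique molecular identifier (UMI), which stands for 1 captured RNA molecule. No mouse carried a transgene or received a treatment according to the labels, and the labels do not say whether a library came from 1 mouse or from a pool.

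bHLH proteins bind DNA as dimers at a short element called the E-box. Proneural members such as Neurog1 and Neurod1 switch on neuronal genes and move a progenitor toward leaving the cell cycle. Hes1 and Hey1 are repressors that the Notch receptor pathway switches on and that hold proneural genes down, while Hes6 is an atypical relative known to oppose Hes1 and to accompany neuronal differentiation. In the olfactory epithelium, horizontal basal cells (Krt5) are the reserve stem cells, globose basal cells divide (Mki67) and give rise to neuronal precursors, and newborn neurons pass through a Gap43-positive immature state to the Omp-positive mature state. Tex15 was used to mark the step between division and the Gap43 state, and Cyp2g1 marks sustentacular cells, the supporting cells of the tissue.

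The libraries held 10256 to 10777 barcodes, of which 8869 to 9339 were kept as cells with median depths of 8283 to 9096 UMIs. Each cell was placed in a gate by its UMIs of 6 marker genes, none of which is among the 7 factors. A cell needed at least 3 UMIs of Krt5, 2 of Mki67, 2 of Tex15, 5 of Gap43, 10 of Omp or 20 of Cyp2g1 and no other call. Over the 4 libraries the gates held 1260 Krt5 cells, 500 Mki67 cells, 1099 Tex15 cells, 1600 Gap43 cells, 16575 Omp cells and 4451 Cyp2g1 cells. Cells with both Tex15 and Gap43 calls (206) or both Gap43 and Omp calls (996) were kept as bridging gates, while cells calling both Krt5 and Mki67 (3 to 6 a library) or both Mki67 and Tex15 (12 to 16) were under the minimum of 20 and were left out. Cells with other combinations of calls, 628 to 754 a library, were left out too. A Tex15 call was not confined to the neuronal lineage: 1803 cells with at least 2 Hey1 UMIs carried both Tex15 and Cyp2g1 calls. Library pairs shared 104 to 126 barcode sequences.

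The gates carried the defining markers of their names, beside markers of other cells. A list of 5 horizontal basal cell markers summed to 7450 CPM (UMIs per 1000000) in the Krt5 gate and to 23.2 CPM in the Mki67 gate. A list of 4 Bowman gland markers summed to 996 to 15898 CPM in the Krt5 gate and to 6338 to 20822 CPM in the Tex15 gate, with none at 0. Their mean of 14156 CPM in the Tex15 gate was above the 10266 CPM of its own list of 5 precursor markers. In the Mki67 gate 3 erythroid markers summed to 1287 to 4622 CPM and 8 immune markers to 503 to 1288 CPM, with at most 1 of them at 0 in a library. Cells rich in gland, keratin or blood transcripts (at least 20 UMIs of Bpifa1, at least 5 of Krt18, Cd74, Hbb-bs or Reg3g, or at least 10 of Rgs5) made up 119 of 500 cells of the Mki67 gate and 117 of 1099 cells of the Tex15 gate, and 1056 of 1260 cells of the Krt5 gate. These thresholds were chosen after seeing the data, and where values without these cells are given they were left out of the gates from Mki67 to Omp but, unless stated, not of the Krt5 gate. Leaving them out raised the means of the Mki67 gate from 331 to 461 CPM for Neurog1, from 1031 to 1444 CPM for Neurod1 and from 130 to 181 CPM for Nhlh1. It lowered Hes1 and Hey1, whose values are given below both ways. The same rule flagged from 95.5% (male 1) to 97.1% (female 2) of the cells of the Cyp2g1 gate. Hes1 and Hey1 are high in that gate, so the rule also takes out cells like those of the Cyp2g1 gate. Since Krt18 is among the genes most like Hey1, a narrower rule without its Krt18 and Rgs5 terms was run too, on the Krt5 gate as well.

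The 7 genes lie apart on 5 chromosomes and each is annotated as protein-coding (GENCODE M21, GRCm38). The stretches before the transcription start of 5 of them are printed here because their RNAs rose together when the Mki67 gate is set against the Krt5 gate, and because the E-box is the element that bHLH proteins bind. They come from the RefSeq promoter table (GRCm38.p6), which held Neurog1, Neurod1, Nhlh1, Nhlh2 and Hes6, and are written 5′ to 3′ on the strand of the gene. Each stretch ends at the more upstream of the RefSeq and GENCODE starts, and E-boxes (CANNTG) are in capitals.
Neurog1, chr13:56252181-56252430, minus strand: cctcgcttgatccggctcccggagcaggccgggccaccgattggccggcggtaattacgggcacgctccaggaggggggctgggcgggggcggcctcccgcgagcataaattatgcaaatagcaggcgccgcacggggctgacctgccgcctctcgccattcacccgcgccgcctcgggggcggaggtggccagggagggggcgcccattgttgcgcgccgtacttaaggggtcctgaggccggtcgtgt
Neurod1, chr2:79456752-79456886, minus strand: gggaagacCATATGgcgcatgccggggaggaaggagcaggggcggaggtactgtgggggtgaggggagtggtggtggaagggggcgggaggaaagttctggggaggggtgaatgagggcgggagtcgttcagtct
Nhlh1, chr1:172057597-172057846, minus strand: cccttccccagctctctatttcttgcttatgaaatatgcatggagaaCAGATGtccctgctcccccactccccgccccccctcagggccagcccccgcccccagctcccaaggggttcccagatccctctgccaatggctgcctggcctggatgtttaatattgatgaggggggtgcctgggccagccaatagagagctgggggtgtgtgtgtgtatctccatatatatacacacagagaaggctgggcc
Nhlh2, chr3:102009895-102010075, plus strand: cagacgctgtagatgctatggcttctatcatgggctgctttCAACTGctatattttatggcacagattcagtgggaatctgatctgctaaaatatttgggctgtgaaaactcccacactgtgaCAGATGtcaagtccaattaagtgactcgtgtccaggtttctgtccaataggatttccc
Hes6, chr1:91414039-91414288, minus strand: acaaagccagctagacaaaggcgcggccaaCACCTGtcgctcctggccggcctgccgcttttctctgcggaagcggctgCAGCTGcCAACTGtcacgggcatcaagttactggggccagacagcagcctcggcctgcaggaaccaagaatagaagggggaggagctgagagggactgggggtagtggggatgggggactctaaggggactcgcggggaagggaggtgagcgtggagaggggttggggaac
Within these stretches Hes6 held 3 E-boxes, the second and the third of them 1 base apart. Nhlh2 held 2, Neurod1 and Nhlh1 held 1 each, and Neurog1 held 0. The letters CAGATG occurred in both Nhlh1 and Nhlh2. N-boxes (CACNAG on either strand), the element bound by Hes repressors, numbered 1 in Nhlh2 and 0 in the other 4 stretches. The letters TGGGAA on either strand, the core of the motif bound by the Notch effector Rbpj, occurred 1 time in each of Nhlh1 and Nhlh2. Matches may overlap those of another motif. Of 32851 promoter windows of 250 bases in the same table, 66.2% held an E-box, 36.7% an N-box and 21.6% the Rbpj letters, so a match by itself is common. The stretches of Neurod1 (135 bases) and Nhlh2 (181 bases) are shorter than these windows. In its full window of 250 bases Nhlh2 held 2 matches to the Rbpj letters. A second Hes6 entry, starting inside the gene at 91413222 and not printed, held 1 E-box and 1 N-box.

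The order in which the factors appeared and were lost came first. Onset was taken as the first gate with at least 10% of a gene's own highest mean CPM, and loss as the first gate after that peak below 10%. Hes1 and Hey1 were already at their neuronal-lineage peak in the Krt5 gate. Neurog1, Neurod1, Hes6, Nhlh1 and Nhlh2 all had their onset in the Mki67 gate, and they parted in their peak and loss. Neurog1, Neurod1 and Hes6 peaked in the Mki67 gate, Nhlh2 in the Tex15 gate and Nhlh1 in the Gap43 gate. These are peaks among the gates, and cells with no marker call have no place in this order. Such cells made up 32.6% of the cells with at least 2 Neurog1 UMIs and 33.0% of those with at least 2 Neurod1 UMIs (means of 4 libraries). Neurog1 and Neurod1 were lost in the cells with both Tex15 and Gap43 calls, Hes6 in the Gap43 gate, and Nhlh1 and Nhlh2 in the Omp gate. Hes1 and Hey1 were lost by this rule in the cells with both Tex15 and Gap43 calls, but their loss is the part of the order that moved most: with the limit at 20% or without the gland-, keratin- or blood-rich cells, Hes1 was lost in the Mki67 gate, and without those cells Hey1 was lost in the Tex15 gate. These losses fell in the same gates when the rich cells were left out of the Krt5 gate too, where 204 cells then held 300 CPM of Hes1 and 283 CPM of Hey1. By the narrower rule Hes1 was lost in the Tex15 gate, with 10.04% of its peak in the Mki67 gate, and Hey1 in the cells with both Tex15 and Gap43 calls. With a limit of 5% only 2 of the 7 genes kept onset, peak and loss, because losses came 1 or more gates later, while all 7 kept their onset and peak under each limit tried. A lower level in a gate of pooled cells can be fewer cells with the RNA or less RNA in each, and CPM alone cannot tell these apart.

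**Figure D1:**
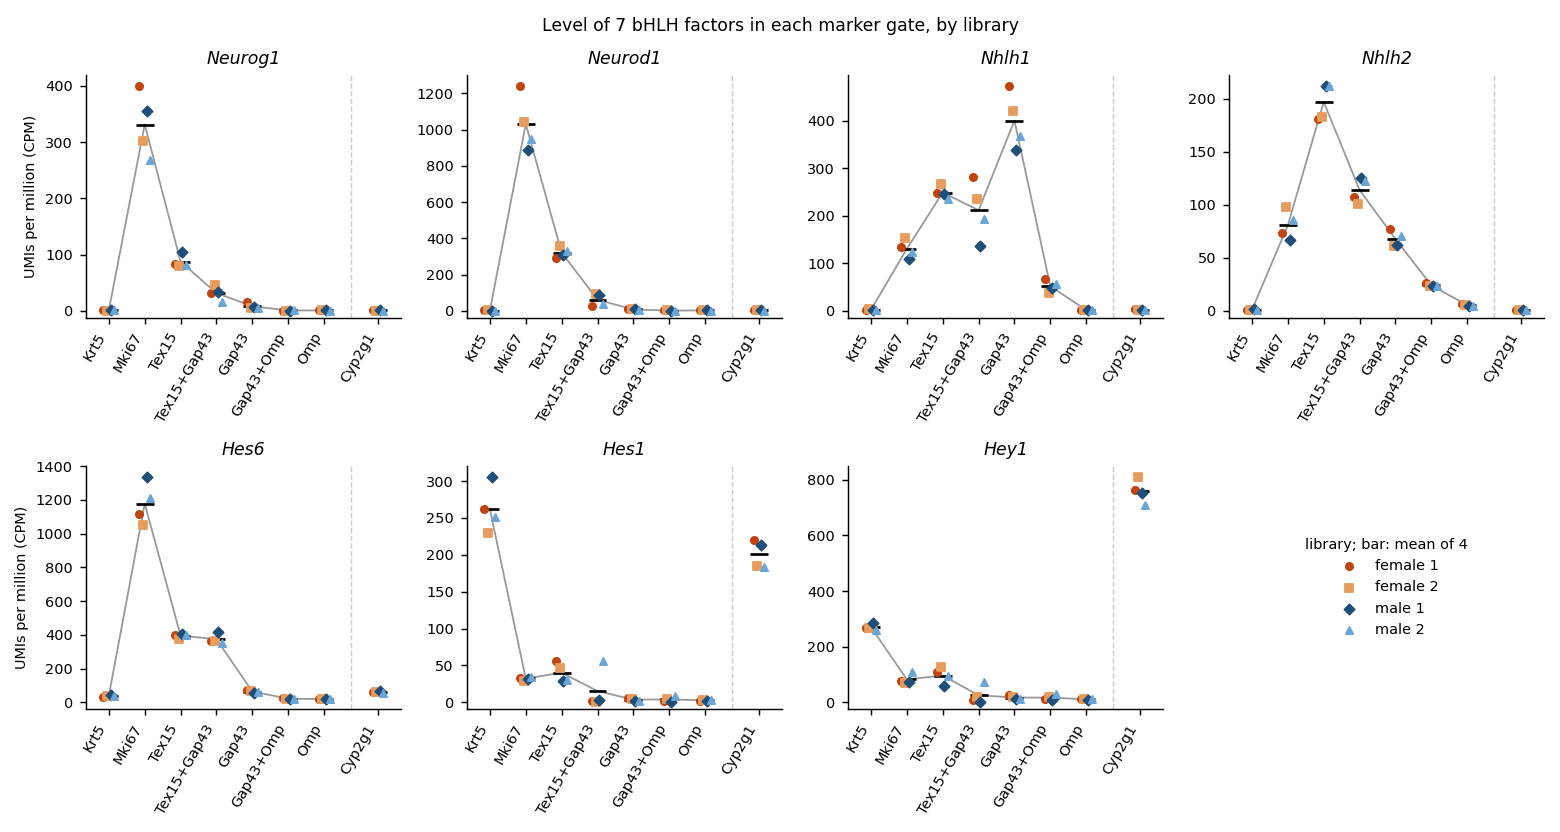
Level of each factor (CPM, vertical axis) in each marker gate (horizontal axis, ordered from basal cells to mature neurons, with the Cyp2g1 gate set apart to the right). Points are the 4 libraries and bars their mean, and the highest neuronal-lineage mean moves from the Krt5 gate for Hes1 and Hey1 to the Mki67 gate for Neurog1, Neurod1 and Hes6, the Tex15 gate for Nhlh2 and the Gap43 gate for Nhlh1.

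Neurog1 (ENSMUSG00000048904, 13:56250478-56252163, minus strand) is the proneural gene that olfactory neuronal precursors need to become neurons. In the Mki67 gate its level was 400 and 302 CPM in female 1 and female 2, and 355 and 268 CPM in male 1 and male 2. In the Krt5 gate it lay between 0.472 and 1.62 CPM, so that the 2 gates did not come near each other. In the Tex15 gate the libraries held 83.9, 80.0, 106 and 81.1 CPM, below every library of the Mki67 gate, and in the Gap43 gate 4.90 to 15.4 CPM. Neurog1 rose by 7.67 ± 0.23 (log2 fold change ± SE) from the Krt5 to the Mki67 gate (adjusted p = 7.61e-18 in edgeR's quasi-likelihood test), then fell by 1.97 to the Tex15 gate, by 3.32 to the Gap43 gate and by 2.73 to the Omp gate. Its share of cells with at least 1 UMI was 54.9% in the Mki67 gate and 29.0% in the Tex15 gate, against 0.768% in the Omp gate and 1.14% in the Cyp2g1 gate, where the gene is not known to act. The depths behind these shares differed: the median was 14118 to 17650.5 UMIs a cell in the Mki67 gate and 7639 to 8453.5 in the Omp gate. With every cell thinned to 2000 UMIs the shares were 34.7% in the Mki67 gate, 12.6% in the Tex15 gate and 0.214% in the Omp gate, in the same order.

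Neurod1 (ENSMUSG00000034701, 2:79452521-79456751, minus strand), which acts after Neurog1 in the same precursors and in many other neuronal lineages, followed the same course with a steeper end. Its level in the Mki67 gate was 1242 and 1044 CPM in female 1 and female 2, and 889 and 949 CPM in male 1 and male 2. The Krt5 gate held 1.86 to 2.83 CPM and the Tex15 gate 292 to 356 CPM. Neurod1 rose by 8.30 ± 0.21 on the log2 scale from the Krt5 to the Mki67 gate (edgeR adjusted p = 3.24e-19), which was the largest rise of the 7 in this fit. The fall from the Tex15 to the Gap43 gate was -5.25 ± 0.16 on the same scale (adjusted p = 7.18e-17 in edgeR's test), which left 4.90 to 10.6 CPM. Below that Neurod1 was near the level of cells that should lack it: 2.38 to 4.41 CPM in the Omp gate and 2.15 to 5.79 CPM in the Cyp2g1 gate. The fall from the Gap43 to the Omp gate passed the test (-0.85 ± 0.23, edgeR adjusted p = 0.00253), but it lost its call when barcodes called doublets were kept (0.13, adjusted p = 0.710) and when barcodes with markers of other cell types were left out (-0.46, adjusted p = 0.349).

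Hes6 (ENSMUSG00000067071, 1:91411483-91414038, minus strand) peaked in the same gate as the proneural genes but outlasted them. The Mki67 gate held 1113, 1051, 1335 and 1211 CPM in female 1, female 2, male 1 and male 2, and the Krt5 gate 32.1 to 45.1 CPM. Unlike the proneural genes, Hes6 was thus above 30 CPM before its rise, and it was detected in 24.8% of Krt5 cells and 47.6% of Cyp2g1 cells. The rise from the Krt5 to the Mki67 gate was 4.56 ± 0.09 (log2, edgeR adjusted p = 1.64e-20), and the fall to the Tex15 gate was -1.62 ± 0.07. Hes6 then stayed level where Neurog1 and Neurod1 continued down: the libraries held 378 to 404 CPM in the Tex15 gate and 351 to 415 CPM in the cells with both Tex15 and Gap43 calls. In the Gap43 gate it had dropped to 56.8 to 70.8 CPM, a fall of -2.61 ± 0.08 from the Tex15 gate (edgeR adjusted p = 9.35e-17). In the Omp gate it stood at 17.5 to 19.4 CPM, detected in 13.5% of cells.

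Nhlh2 (ENSMUSG00000048540, 3:102010076-102015492, plus strand) and Nhlh1 (ENSMUSG00000051251, 1:172052292-172057573, minus strand) encode a pair of closely related neuronal bHLH proteins, also called NSCL-2 and NSCL-1, that are known from newborn neurons. Nhlh2 was at 73.1, 97.4, 66.6 and 85.6 CPM in the Mki67 gate and at 181, 183, 212 and 212 CPM in the Tex15 gate (female 1, female 2, male 1, male 2). Every library was higher in the Tex15 gate, by 1.24 ± 0.10 on the log2 scale (edgeR adjusted p = 6.57e-10). Nhlh2 fell from there by 1.52 to the Gap43 gate and by 3.23 to the Omp gate, where 5.13 to 6.12 CPM remained against 0.692 to 1.26 CPM in the Cyp2g1 gate.

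Nhlh1 rose over 3 gates in a row. It was at 135, 153, 109 and 125 CPM in the Mki67 gate, at 248, 266, 246 and 236 CPM in the Tex15 gate and at 474, 421, 338 and 368 CPM in the Gap43 gate. The steps were 5.49 ± 0.21, 0.89 ± 0.09 and 0.70 ± 0.08 on the log2 scale, and the last of them, from the Tex15 to the Gap43 gate, was the 1 rise among the 7 factors at that step (edgeR adjusted p = 1.31e-07). The gene was detected in 85.3% of Gap43 cells. Its end was abrupt: 37.5 to 67.2 CPM remained in cells with both Gap43 and Omp calls and 1.54 to 2.37 CPM in the Omp gate, which made the step from the Gap43 to the Omp gate -7.25 ± 0.11 (adjusted p = 6.59e-23 in edgeR's test). That Omp level lay at or below the 2.35 to 3.79 CPM of the Cyp2g1 gate.

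Finer bins split the course of Nhlh1. The Tex15 and Gap43 gates were divided by Gap43 UMIs per cell, without the gland-, keratin- or blood-rich cells, and the bins were chosen after seeing the data, so they carry no test. Tex15 cells without a Gap43 UMI held 396, 481, 363 and 351 CPM of Nhlh1 (female 1, female 2, male 1, male 2). Tex15 cells with 2 to 4 Gap43 UMIs held 246, 232, 133 and 157 CPM. Gap43 cells with 20 or more Gap43 UMIs held 514, 478, 382 and 409.5 CPM. Over the bins just named Nhlh1 was therefore high, lower and high again in 4 of 4 libraries. Its lowest mean among the Tex15 and Gap43 bins was 43.1% of its highest, and the Mki67 gate before them stood at 40.5%. The lowest of these bins was not the same in every library: female 2 was lowest in Gap43 cells with 5 to 9 Gap43 UMIs (205 CPM). Nhlh2 did not return: from 307 ± 33.3 CPM (SD, n = 4) in Tex15 cells without Gap43 it went down to 166 ± 45.2 CPM at 2 to 4 Gap43 UMIs and to 60.7 ± 6.67 CPM at 20 or more, lower in 4 of 4 libraries at both steps. Hes6 had a small second rise, from 402 ± 46.5 CPM in Tex15 cells without Gap43 to 521 ± 30.8 CPM in those with 1 Gap43 UMI, higher in 4 of 4 libraries. It then dropped from 385 ± 22.9 CPM in the bridging cells to 103 ± 5.89 CPM in Gap43 cells with 5 to 9 UMIs and no Tex15 call. Neurod1 declined along the same bins, with 45.9% of its highest mean in the first Tex15 bin, 19.2% in the second and 8.76% in the third.

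**Figure D2:**
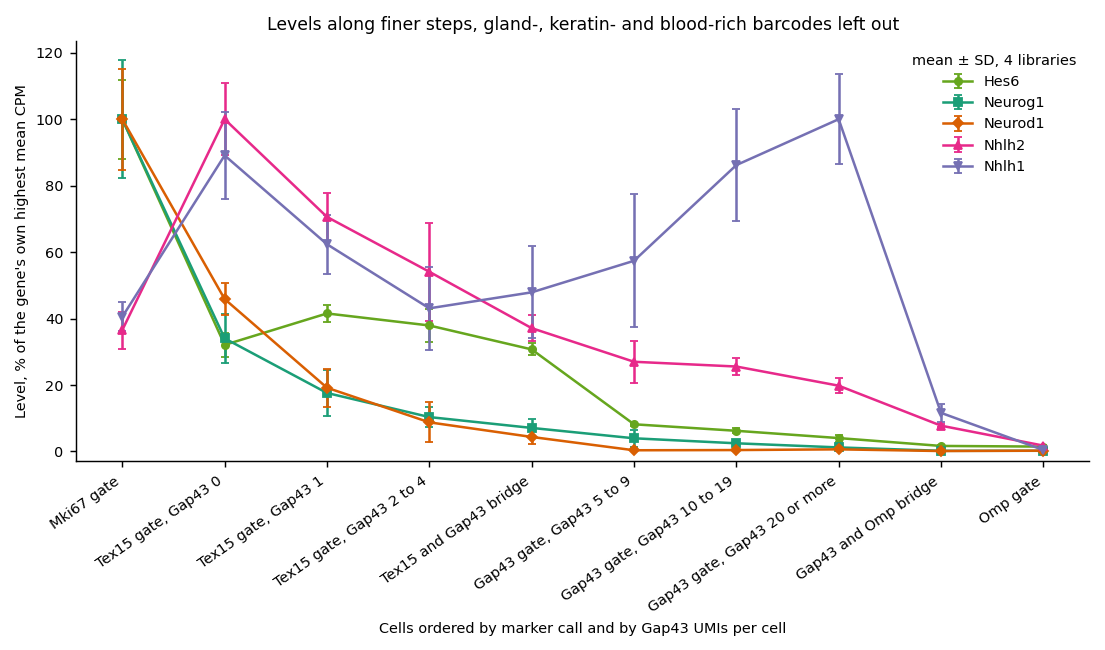
Mean level of 5 factors as a percentage of each gene's own highest mean CPM (vertical axis, error bars SD over 4 libraries) along 10 bins of cells ordered by marker call and Gap43 UMIs (horizontal axis), without gland-, keratin- or blood-rich barcodes. Nhlh1 drops to 43.1% at 2 to 4 Gap43 UMIs and returns to 100% at 20 or more, while Neurog1, Neurod1 and Nhlh2 decline from their peaks.

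Hes1 (ENSMUSG00000022528, 16:30064384-30067796, plus strand) is the main Notch-driven repressor of proneural genes. The Krt5 gate held 262, 230, 305 and 251 CPM in female 1, female 2, male 1 and male 2, and the Mki67 gate 32.9, 29.4, 32.0 and 34.7 CPM. Hes1 fell by 3.42 on the log2 scale between them (SE 0.15, edgeR adjusted p = 6.31e-15). In the Tex15 gate it was at 55.7, 46.5, 28.5 and 29.6 CPM, a difference from the Mki67 gate of 0.31 ± 0.20 that did not pass (edgeR adjusted p = 0.185). The cells rich in gland, keratin or blood transcripts held 66.1% of the Hes1 UMIs of the Mki67 gate and 96.3% of those of the Tex15 gate, while they held 1.14% and 1.61% of the Neurod1 UMIs. Without them Hes1 was at 15.1 ± 3.69 CPM in the Mki67 gate and 1.79 ± 1.15 CPM in the Tex15 gate (SD, n = 4). The step between these gates turned to -3.02 ± 0.40 (edgeR adjusted p = 3.29e-07). The rule flags most cells of the Krt5 and Cyp2g1 gates, where Hes1 is high, so it can lower Hes1 by itself. That p-value therefore cannot decide whether Hes1 falls between these gates. The step was smaller without the Krt18 and Rgs5 terms: by the narrower rule Hes1 was at 27.9 ± 5.33 and 12.98 ± 7.59 CPM and the step was -1.04 ± 0.26 (edgeR adjusted p = 0.00143). The narrower rule too was set after seeing the data. It took out 66 Tex15 cells and so brought Hes1 in that gate from 40.1 to 12.98 CPM. Its p-value therefore cannot decide the question either. The fall from the Tex15 to the Gap43 gate, -3.45 ± 0.26 with all cells, was -0.54 ± 0.58 without the rich cells and did not pass (adjusted p = 0.450 in edgeR's test), but passed at -2.85 ± 0.39 by the narrower rule. Hes1 was at 3.56 CPM in the Gap43 gate (1.29 CPM without the rich cells) and at 2.19 to 3.29 CPM in the Omp gate (1.39 to 1.79 CPM without them).

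Hey1 (ENSMUSG00000040289, 3:8663359-8667256, minus strand), a Notch-driven repressor of the related Hey family, behaved similarly in the neuronal gates and differently in supporting cells. It was at 267, 267, 287 and 261 CPM in the Krt5 gate and 76.7, 68.0, 74.4 and 110 CPM in the Mki67 gate. The fall was -2.13 ± 0.17 on the log2 scale (edgeR adjusted p = 1.22e-10). Hey1 was not called between the Mki67 and Tex15 gates (0.18 ± 0.18, edgeR adjusted p = 0.400), and the rich cells held 64.0% and 78.2% of its UMIs in those gates. Without them it was at 43.1 ± 23.6 and 26.5 ± 8.14 CPM and the step was -0.66 ± 0.25 (edgeR adjusted p = 0.0262). The narrower rule gave -0.58 ± 0.17 (edgeR adjusted p = 0.00562). The limits stated for Hes1 hold for both of these p-values: the narrower rule brought Hey1 in the Tex15 gate from 96.1 to 48.5 CPM. In the Gap43 gate Hey1 was at 16.9 CPM, and at 10.2 CPM without the rich cells. It fell from the Tex15 to the Gap43 gate by 2.46 on the log2 scale (SE 0.21), but with marker thresholds set per 10000 UMIs this was -0.48 (adjusted p = 0.0960 in edgeR's test).

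The Cyp2g1 gate, set against the Krt5 gate, separated the Hes and Hey genes. Beside sustentacular markers the Cyp2g1 gate carried 4 Bowman gland markers summing to 1593 to 5587 CPM and 4 fibroblast markers summing to 962 to 1131 CPM. In the Cyp2g1 gate Hey1 was at 764, 810, 752 and 710 CPM, above every library of the Krt5 gate, and it was detected in 96.8% of the cells. Hes1 was at 221, 185, 214 and 183 CPM there. Hey1 was higher in the Cyp2g1 gate than in the Krt5 gate by 1.44 ± 0.14 (log2, edgeR adjusted p = 4.03e-09) and Hes1 was lower (-0.43 ± 0.11, adjusted p = 0.00128). Hes6 was higher (0.62 ± 0.10, edgeR adjusted p = 1.01e-05), at 55.4 to 64.4 CPM against 32.1 to 45.1 CPM. These are values of all cells. In the 204 Krt5 cells left without the rich cells, Hey1 was at 283 ± 65.4 CPM, Hes1 at 300 ± 58.1 CPM and Hes6 at 38.5 ± 4.82 CPM (SD, n = 4). Neurog1, Neurod1, Nhlh1 and Nhlh2 were at 0.472 to 5.79 CPM in both gates and did not pass. A list of 5 endothelial and mural markers summed to 1849 to 2428 CPM in the Cyp2g1 gate and 73.0 to 126 CPM in the Krt5 gate. Rgs5 made up nearly all of the former (1847 to 2427 CPM), while Pecam1, which defines endothelial cells, was at 0.415 to 0.716 CPM and Cdh5 was at 0 in all 4 libraries of the Cyp2g1 gate.

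Counts of called members need the share of all genes called, since these gates differ in most genes. From the Krt5 to the Mki67 gate 7 of 7 members passed, 5 higher and 2 lower, where 73.2% of 13779 genes passed, 36.7% higher and 36.5% lower. The median log2 change of the 7 was 5.49 against -0.02 for all genes. From the Mki67 to the Tex15 gate 5 of 7 passed, 2 higher and 3 lower, with 63.5% of all genes called, 31.9% higher and 31.6% lower. From the Tex15 to the Gap43 gate 7 of 7 passed, 1 higher and 6 lower, with 62.7% of all genes called, 33.9% higher and 28.8% lower. The median change was -2.61 for the 7 and 0.05 for all genes. From the Gap43 to the Omp gate 5 of 7 passed, all lower, with 72.1% of all genes called, 40.8% higher and 31.4% lower. Between the Krt5 and Cyp2g1 gates 3 of 7 passed, with 63.7% of all genes called, 33.6% higher in the Cyp2g1 gate and 30.1% lower, a lower share for the members than for all genes. These shares depend on scaling: without the trimmed mean (TMM) factors the median of all genes was 0.37 for the Mki67 over Krt5 step and -0.33 for the Omp over Gap43 step (0.08 with them), and the calls split into 6728 higher and 3678 lower for the former (5054 and 5033 with TMM) and 3473 higher and 6952 lower for the latter (5616 and 4324 with TMM). No called member changed direction without TMM.

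**Figure D3:**
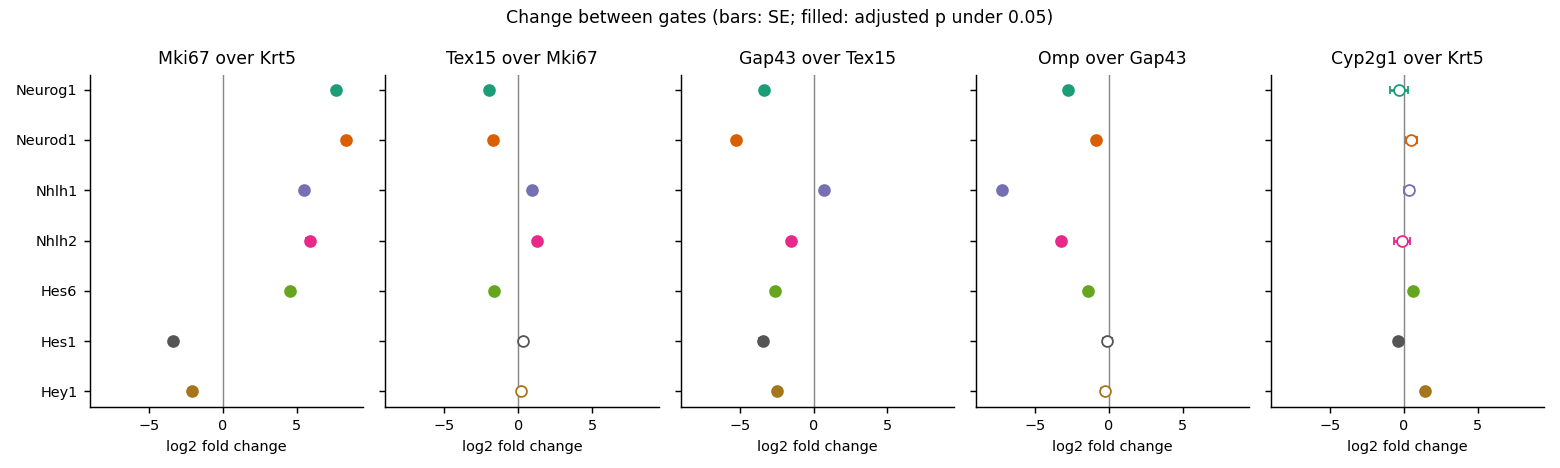
Log2 fold change of each factor (horizontal axis, bars SE) between neighbouring gates and between the Cyp2g1 and Krt5 gates, from edgeR's fit over 24 sums of cells. Filled points passed at an adjusted p under 0.05. Nhlh1 is the single factor to the right of 0 from the Tex15 to the Gap43 gate, and Hes1 and Hey1 are the pair to the left of 0 from the Krt5 to the Mki67 gate.

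The marker calls were also counted from the side of the factors. Among cells with at least 2 UMIs of a factor, the share that carried each marker call was taken in each library. A cell can carry several calls, as 8.90% of the Neurog1 cells and 24.3% of the Hes6 cells did, so the shares of a factor are not parts of a whole. The shares also depend on how many cells carry a call at all. The gates held 500 Mki67, 1099 Tex15 and 1600 Gap43 cells, so shares of different calls do not by themselves give timing. Of 719 such Neurog1 cells, 37.4% ± 1.67 (SD over 4 libraries) carried a Mki67 call and 29.1% ± 2.31 a Tex15 call. Of 1041 Neurod1 cells, 28.9% ± 1.81 carried Mki67 and 33.0% ± 1.54 Tex15. Nhlh2 cells (1368) were weighted later, with 10.7% ± 1.65 Mki67, 39.5% ± 2.84 Tex15 and 32.9% ± 2.13 Gap43. Nhlh1 cells (2633) were later still, with 8.18% ± 0.98 Mki67, 24.8% ± 1.34 Tex15 and 59.1% ± 0.83 Gap43. Hes6 cells (4011) were spread widely, with a Mki67 call in 13.2% ± 0.79, Tex15 in 34.0% ± 1.28, Gap43 in 15.04% ± 0.75, Omp in 12.1% ± 0.68 and Cyp2g1 in 36.6% ± 2.55. Of the 1364 Hes6 cells with a Tex15 call, 477 had a Cyp2g1 call too. Most Hes1 cells (70.2% ± 5.39 of 5564) and Hey1 cells (77.1% ± 3.95 of 8758) carried a Cyp2g1 call. More of them carried Tex15 (19.8% and 22.4%) than Krt5 (11.6% and 7.44%), and 92.3% and 91.9% of those Tex15 cells had a Cyp2g1 call too. From Krt5 to Omp the order of these shares was thus not that of the CPM for Neurod1, Hes6, Hes1 and Hey1. Their neuronal-lineage peaks lay in the Mki67 or the Krt5 gate. With the Cyp2g1 gate counted, Hey1 had both its highest mean CPM (759) and its largest share (77.1%) there. An Omp call was carried by 1.30% of Neurog1 cells and 5.37% of Neurod1 cells.

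**Figure D4:**
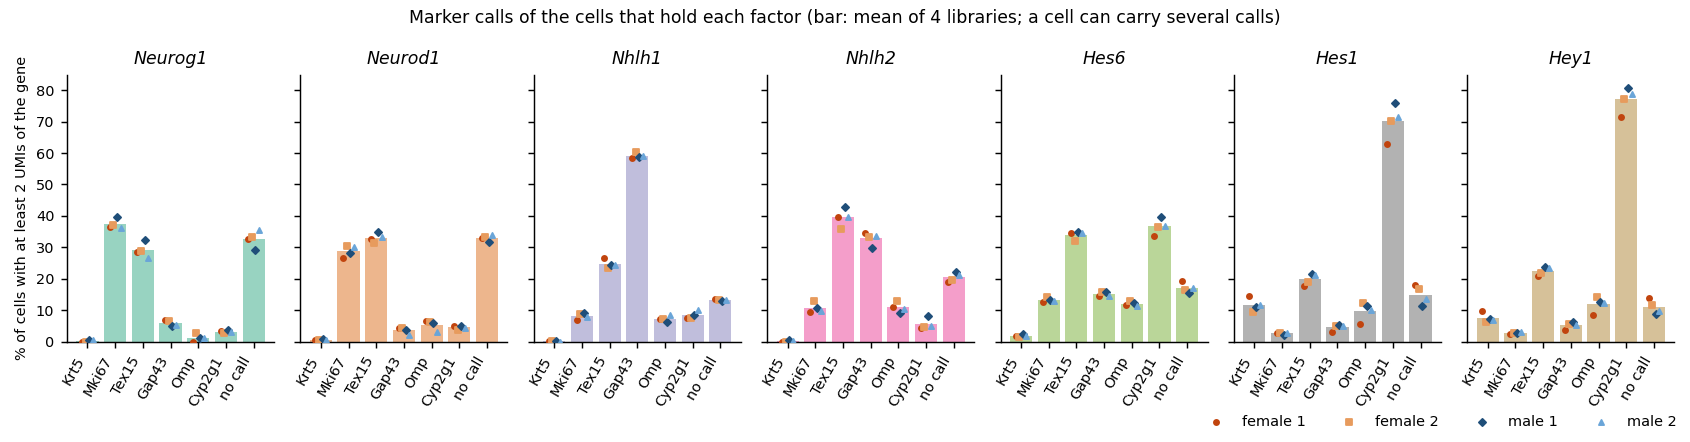
Share of the cells with at least 2 UMIs of each factor (vertical axis, percent) that carry each marker call (horizontal axis). Bars are means of 4 libraries and points the libraries. The tallest bar is Mki67 for Neurog1, Gap43 for Nhlh1 and Cyp2g1 for Hes6, Hes1 and Hey1.

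Within the dividing cells of the Mki67 gate, the proneural and Nhlh genes were found together and Hes1 apart from them. Of 275 cells with a Neurog1 UMI, 89.8% also had a Neurod1 UMI, against 8.44% of the cells without Neurog1. Nhlh1 was found in 81.2% of Neurod1-positive cells and 3.42% of Neurod1-negative ones, and Nhlh2 in 60.9% and 0.427%. Nhlh2 RNA in dividing cells was thus almost confined to cells with Neurod1: 162 of 163 cells with a Nhlh2 UMI had one of Neurod1. Each of these 3 pairs held in 4 of 4 libraries. These shares count all cells of the gate, also its 119 rich cells. Those held 1.84% of its Neurog1, 1.14% of its Neurod1, 2.10% of its Nhlh1 and 1.71% of its Nhlh2 UMIs. Shares of the 3 pairs without the rich cells are not given here. Of 21 pairs in this gate, 12 were higher and 8 lower in 4 of 4 libraries, against 8 and 6 without the rich cells. Cells are not replicates, so these shares are descriptions with no test.

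Hes1 was found in 7.14% of Neurod1-positive and 36.3% of Neurod1-negative cells of the Mki67 gate, lower in 4 of 4 libraries. Without the rich cells the shares were 6.18% and 26.2%, again lower in 4 of 4 libraries. Hey1 was in 24.4% of Neurod1-positive and 45.7% of Neurod1-negative cells. Hes1 and Hey1 themselves went together: Hey1 was in 67.3% of Hes1-positive and 25.8% of Hes1-negative cells. Hes6 was common on both sides, in 95.3% of Neurog1-positive and 76.4% of Neurog1-negative cells, and Hes1 was in 21.2% of Hes6-positive and 18.2% of Hes6-negative cells, higher in 2 libraries and lower in 2.

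Because deeper cells show more genes, each cell was also thinned to 2000 UMIs (5 of the 500 cells of the Mki67 gate were shallower and left out). Neurod1 was then in 94.2% of Neurog1-positive and 28.0% of Neurog1-negative cells, and Hes1 in 2.37% of Neurod1-positive and 7.85% of Neurod1-negative cells. The association of Hes6 with Nhlh1 turned around, from 92.9% against 81.9% to 64.1% against 67.2%, and that with Nhlh2 from 94.5% against 83.1% to 62.5% against 67.1%.

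In the Tex15 gate fewer cells held the proneural pair and more held the Nhlh pair. Neurod1 was in 63.4% of Neurog1-positive and 19.2% of Neurog1-negative cells, and Nhlh2 was in 71.7% of Nhlh1-positive and 23.1% of Nhlh1-negative cells. Both pairs held in 4 of 4 libraries. In all, 481 of 1099 cells held UMIs of both Nhlh genes, against 204 with both Neurog1 and Neurod1. Hes1 appeared set apart from Nhlh1 here too (1.94% against 18.9%), but without the rich cells the shares were 1.22% and 1.54%, higher in 3 libraries and lower in 1. The remaining 982 cells held 15 Hes1 UMIs, too few to show a separation of Hes1 from Nhlh1 or its absence. Hey1 was in 84.0% of Hes1-positive and 15.1% of Hes1-negative Tex15 cells with all cells counted. Over both gates, 36 of the 42 pair comparisons had 1 direction in 4 of 4 libraries, and 28 did without the rich cells.

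**Figure D5:**
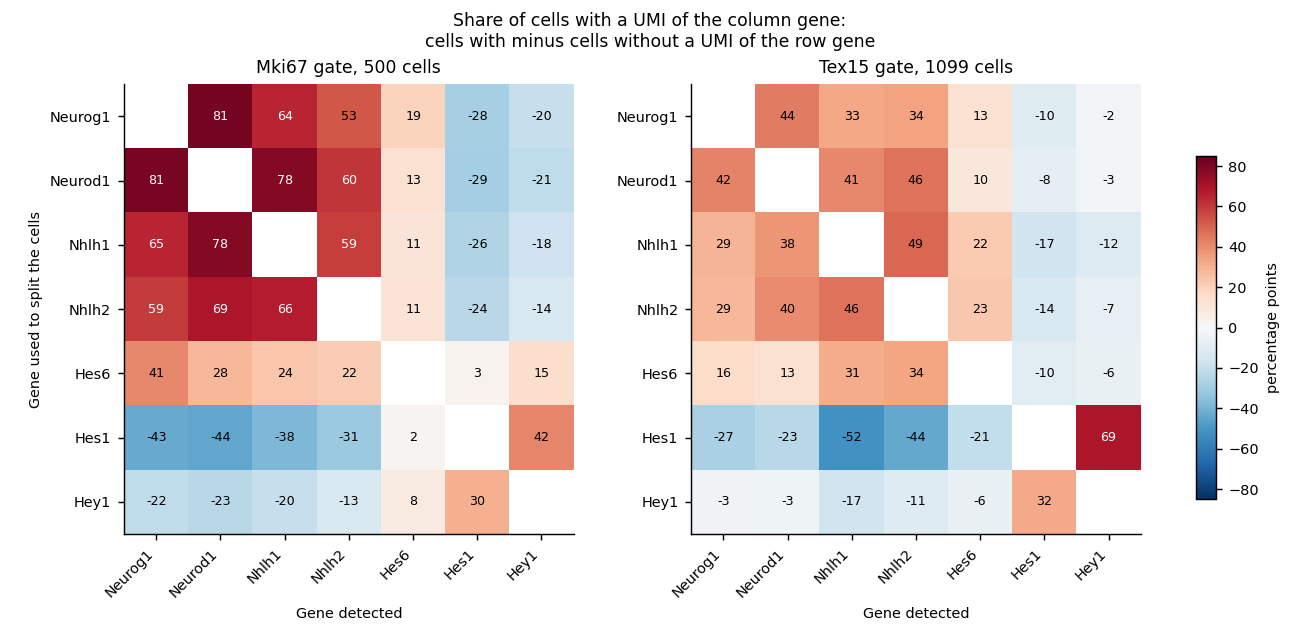
Difference, in percentage points, between the share of cells with a UMI of the column gene among cells with and among cells without a UMI of the row gene, for the Mki67 gate (500 cells) and the Tex15 gate (1099 cells). Red pairs were found together and blue pairs apart. Neurod1 with Neurog1 in the Mki67 gate is the comparison of 89.8% with 8.44%, and Hes1 is blue against Neurog1, Neurod1, Nhlh1 and Nhlh2 in both gates with all cells counted.

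Related genes were described from 3 lists. Of 33 bHLH partners and relatives 22 were measured well enough to test, and 21 passed from the Krt5 to the Mki67 gate, 12 higher and 9 lower, against 73.2% of all genes, with a median log2 change of 1.23 against -0.02 for all genes. From the Mki67 to the Tex15 gate 18 of 22 passed, 5 higher and 13 lower (63.5% of all genes passed, and the median was -0.48 against 0.04 for all genes). Ascl2, an Achaete-scute family gene, was at 12.7 CPM in the Krt5 gate and had no UMI in the Mki67 gate. Neurod2 and Neurod4, relatives of Neurod1, had no UMI in the Krt5 gate and were at 3.47 and 3.56 CPM in the Mki67 gate. Hes5, another Notch-driven repressor, named after its values were seen, rose where Hes1 fell: it went up from 1.31 CPM in the Krt5 gate to 29.6 CPM in the Mki67 gate (edgeR adjusted p = 1.17e-05) and fell by 4.22 on the log2 scale to 1.44 CPM in the Tex15 gate. The list had 15 of 22 called from the Tex15 to the Gap43 gate (1 higher, 14 lower), 14 from the Gap43 to the Omp gate (2 higher, 12 lower) and 14 between the Krt5 and Cyp2g1 gates (6 higher, 8 lower), where 62.7%, 72.1% and 63.7% of all genes passed, so the last of these shares was at that of all genes.

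Of 26 Notch pathway genes 25 were tested. From the Krt5 to the Mki67 gate 19 passed, 12 higher and 7 lower (median 0.16), a share near the 73.2% of all genes, and from the Mki67 to the Tex15 gate 11 passed, 4 higher and 7 lower (median -0.02), a share below the 63.5% of all genes. The ligand genes divided: Dll1 fell by 5.17 from 147 to 5.38 CPM between the Krt5 and Mki67 gates, while Dll3 rose by 6.66 ± 0.60 to 14.3 CPM and Dll4 by 3.91 ± 0.67 to 5.81 CPM. Mfng, which glycosylates Notch receptors, rose by 8.49 ± 0.19 to 368 CPM (edgeR adjusted p = 6.10e-20) and fell by 2.59 to 63.1 CPM in the Tex15 gate. The later steps had 17 of 25 called (5 higher, 12 lower), 16 (6 higher, 10 lower) and, between the Krt5 and Cyp2g1 gates, 17 (9 higher, 8 lower), where 62.7%, 72.1% and 63.7% of all genes passed.

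Of 29 neuronal differentiation factors 26 were tested, and 24 passed from the Krt5 to the Mki67 gate, 21 higher and 3 lower, with a median of 3.21, where 73.2% of all genes passed. From the Mki67 to the Tex15 gate 24 passed, 14 higher and 10 lower (median 0.80), where 63.5% of all genes passed. The zinc finger repressor Insm1 rose by 7.29 ± 0.12 to 1211 CPM in the Mki67 gate. St18, a zinc finger gene of the Myt1 family, rose by 8.48 ± 0.55 to 51.0 CPM, Runx1t1 by 7.24 ± 0.40 to 40.5 CPM and the corepressor gene Rcor2 by 6.86 ± 0.19 to 190 CPM. The remaining steps had 24 called (6 higher, 18 lower), 14 (3 higher, 11 lower) and 10 (7 higher, 3 lower), against 62.7%, 72.1% and 63.7% of all genes, so the last 2 shares were below those of all genes.

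The genes most like each factor were sought among 13398 genes by the Pearson correlation of log2 CPM over the 24 sums of 6 gates in 4 libraries, which share gates and libraries and so are not independent. Btbd17 (0.986), Vps72 (0.985) and Prmt8 (0.983) were most like Neurog1. Clvs1 (0.982), Scg2 (0.982) and Hnrnpc (0.979) were most like Neurod1. For Nhlh1 they were Actr1a (0.985), Dennd1c (0.983) and Gse1 (0.983). Sinhcaf (0.991) and Ccar2 (0.987) were among those most like Nhlh2. Atad2 (0.977), Ezh2 (0.974) and St18 (0.969) were most like Hes6, which gave it the lowest likeness of the 7. Hes1 went with Chst9 (0.993), Ier3 (0.991) and Gpx8 (0.989), and Hey1 with St3gal6 (0.992), Krt18 (0.992) and Mgll (0.991). Among the factors the coefficient was 0.978 for Neurog1 with Neurod1, 0.966 for Hes1 with Hey1 and 0.931 for Nhlh1 with Nhlh2. Scg2 shows the shape, at 3.18 CPM in the Krt5 gate, 394 in the Mki67 gate, 115 in the Tex15 gate and 14.5 in the Gap43 gate.

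Sex was the single difference between the libraries that the labels give. No member passed between males and females in the Mki67, Tex15 or Gap43 gate by edgeR's quasi-likelihood test, where 0.118%, 0.303% and 0.538% of all genes did (13, 34 and 62 genes). Genes at an unadjusted p under 0.05 numbered 901, 1273 and 1082 of all genes tested. Hes1 in the Tex15 gate was at 55.7 and 46.5 CPM in females and at 28.5 and 29.6 CPM in males, without overlap (log2 change -0.78 ± 0.16, edgeR adjusted p = 0.152, and 0.00136 with no filter on low counts). Rich cells made up 13.3% and 13.5% of the female and 5.81% and 8.81% of the male Tex15 cells, and their part in this difference was not tested. Nhlh1 in the Gap43 gate was higher in both females (474 and 421 CPM) than in both males (338 and 368 CPM), a log2 change of -0.31 ± 0.08 that did not pass (adjusted p = 0.230 with edgeR) but passed with the replicate number as a block (0.0200) and with DESeq2 (0.0473). Hey1 in the Gap43 gate was at 25.8 and 18.4 CPM in females and 11.2 and 12.1 CPM in males (-0.89 ± 0.21, edgeR adjusted p = 0.179, and 0.00637 with the block). For Hey1 in the Tex15 gate, -0.58 ± 0.20 did not pass (edgeR adjusted p = 0.335, and 0.00180 with no filter on low counts), and without male 2 the change was -0.95 (adjusted p = 0.0222). Neurog1 in the Mki67 gate overlapped between the sexes (-0.11 ± 0.16, adjusted p = 0.902), as Neurod1 in the Tex15 gate did (0.02 ± 0.13, adjusted p = 0.966), both by edgeR's test.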

How the data were processed

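Single-cell RNA was counted in 4 droplet libraries of main olfactory epithelium. The values are deposited UMI counts, 1 for each gene and barcode, not normalized and made with Cell Ranger 6.0.2 per the file headers, while the submitters' processing notes name Cell Ranger 5.0.1 and the build mm10. Totals were 111577458 and 104782202 UMIs in the female libraries and 100725429 and 101346759 UMIs in the male ones. The labels do not state separate animals for the libraries of a sex, so p-values measure the spread between these libraries, which may be technical.

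Cells had at least 500 genes and at most 10% mitochondrial UMIs, which excluded 493 to 610 barcodes a library. Doublets were scored in each library against 2 artificial doublets per barcode with 50 neighbours (scikit-learn 1.9.0), and the top scores were removed (8.20% to 8.62% of barcodes). Counts were summed per library and gate. The 24 sums were fitted together in edgeR 4.0.16 (R 4.3.3) with TMM scaling, its filter on low counts, library as a covariate and the quasi-likelihood test, with Benjamini-Hochberg adjustment over all 13779 genes tested and a threshold of 0.05. Sexes were compared within a gate, 2 libraries against 2. The fits were first tested on simulated data. Levels are UMIs per 1000000 summed UMIs (CPM), as mean ± SD over libraries. Intervals cover counting error only.

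The members, the gates and the lists were chosen with earlier results of these data known. Named genes are the 7 members, the 3 genes most like each (prior count 2, at least 5 CPM in their highest gate) and, of each of 3 lists (bHLH relatives, Notch pathway, neuronal differentiation factors), the 4 with the largest called change at the first or the second step. Some genes that this rule names are not reported here. Alternatives were scaling without TMM, DESeq2 1.42.0, no filter, doubled thresholds, thresholds per 10000 UMIs, doublets kept, barcodes with other cell types' markers left out, no block for the library, each library left out, and thinning to 2000 UMIs. Leaving out gland-, keratin- and blood-rich barcodes (also from the Krt5 gate, and by a rule without Krt18 and Rgs5) and the finer Gap43 bins were added after seeing the data. Promoters came from a RefSeq table (GRCm38.p6) and gene positions from GENCODE M21.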

Additional observations from a re-analysis of the deposited data

Results flagged for a closer look

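Barcodes without any of the 6 marker calls, which enter no comparison above, held the early factors. Their means were 47.0 CPM for Neurog1, 190 CPM for Neurod1, 58.6 CPM for Nhlh1 and 38.9 CPM for Nhlh2, against 0.958, 3.49, 1.95 and 5.40 CPM in the Omp gate. In the 4 libraries Neurod1 was at 198, 201, 191 and 171 CPM there. The barcodes with no call held 7023 Neurod1 UMIs in all, against 8302 in the Mki67 gate and 3109 in the Tex15 gate. These 6793 cells were shallow, with medians of 2675 to 3260.5 UMIs a library, and 343 of them had at least 2 Neurod1 UMIs, which is 33.0% of all cells with that many.

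With all cells counted, Hes1 and Hey1 moved in opposite directions between the Mki67 and Tex15 gates in the 2 sexes. The Tex15 level minus the Mki67 level of Hes1 was 22.8 and 17.1 CPM in female 1 and female 2 and -3.51 and -5.11 CPM in male 1 and male 2. For Hey1 the same difference was 31.2 CPM in female 1, 58.1 CPM in female 2, -16.8 CPM in male 1 and -17.4 CPM in male 2. The test of the difference between the sexes did not pass for either gene: the interaction was -0.89 on the log2 scale for Hes1 (edgeR adjusted p = 0.267) and -0.95 for Hey1 (adjusted p = 0.196). The share of gland-, keratin- or blood-rich cells in the Tex15 gate was 13.3% and 13.5% in females and 5.81% and 8.81% in males. Without those cells the opposite directions were gone. Hes1 was then lower in the Tex15 gate in 4 of 4 libraries (-16.2 and -15.1 CPM in females, -11.9 and -10.1 CPM in males). Hey1 differed by -19.5 and -5.71 CPM in females and by 3.19 and -44.1 CPM in males. By the rule without Krt18 and Rgs5 Hes1 was lower in 4 of 4 libraries too, but the sexes stayed apart. The difference was -3.85 and -10.5 CPM in females and -21.8 and -23.4 CPM in males. For Hey1 it was -21.3 and 5.39 CPM in females and -32.8 and -44.7 CPM in males by that rule. The part of the rich cells in the difference between the sexes was not tested.

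In 5 of 56 sets of 4 libraries (7 genes in 8 gates) 1 library stood apart from the other 3 by Dixon's criterion, which chance meets in about 1 set of 20. Hes1 in cells with both Tex15 and Gap43 calls was at 55.6 CPM in male 2 and at 0 to 3.74 CPM in the others, and without male 2 its mean there falls from 15.2 to 1.76 CPM. Neurog1 in the Tex15 gate was at 106 CPM in male 1 (80.0 to 83.9 CPM in the others). Neurog1 in cells with both Gap43 and Omp calls was at 1.78 CPM in male 2 (0.523 to 0.686 CPM in the others). Nhlh2 in female 1 was at 25.9 CPM in cells with both Gap43 and Omp calls (23.3 to 23.8 CPM in the others) and at 6.12 CPM in the Omp gate (5.13 to 5.23 CPM in the others).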

How the results depend on the processing

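Of the 35 member changes between gates, 27 passed, and 26 to 29 passed under the alternatives. The 5 counts of genes called between gates stayed within 1.5 times. Counts between the sexes did not: in the Mki67 gate 13 genes became 32 with no filter, 29 with DESeq2, 95 with the replicate block and 0 to 159 with a library left out (0 without male 2, 3 without male 1, 146 without female 2, 159 without female 1). In the Tex15 gate 34 became 545 with no filter, 64 with DESeq2, 100 with the replicate block and 24 to 311 with a library left out (61 without female 2, 311 without male 2). In the Gap43 gate 62 became 40 without TMM, 34 with no filter, 380 with the replicate block and 53 to 100 with a library left out (100 without male 2). The numbers of genes tested differed: DESeq2 gave adjusted values for 1103 genes in the Mki67 gate and 841 in the Tex15 gate. The main test covered 10981 and 11233 genes there, and no filter 15896 and 16806, so these counts are not shares of the same set. The deviation of female 1 from the female mean was correlated over genes with that of male 1 from the male mean. The coefficients were 0.0555, 0.0201 and 0.0701 in the Mki67, Tex15 and Gap43 gates. They do not settle whether same-numbered libraries shared a batch. Onset, peak and loss were all kept by 2 of 7 members at a limit of 5%, by 4 at 20% and by 3 with doubled thresholds, under which too few cells were left for the bridge of Tex15 and Gap43.

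Sign changes on the log2 scale were almost all among changes that had not passed. From the Mki67 to the Tex15 gate Hes1 turned to -1.83 with doubled thresholds, -1.10 with thresholds per 10000 UMIs and -3.02 without rich barcodes (-1.04 by the rule without Krt18 and Rgs5), and Hey1 to -1.34, -1.08 and -0.66 (-0.58 by that rule, and -0.038 to 0.43 with a library left out). From the Gap43 to the Omp gate Neurod1 turned to 0.13 with doublets kept, Hes1 to 0.48 with doublets kept, 0.80 without barcodes with other types' markers and 0.65 without rich barcodes (0.45 by the narrower rule, and -0.27 to 0.35 with a library left out), and Hey1 to 0.24 with doublets kept. Between the Krt5 and Cyp2g1 gates Neurog1 turned to 0.022 without other types' markers, Neurod1 to -0.29 with doublets kept and -0.18 without other types' markers, Nhlh2 to 0.10 with thresholds per 10000 UMIs, and Nhlh1 ranged from -0.048 to 0.70 with a library left out. With the 1056 rich barcodes left out of the Krt5 gate, Neurog1 turned to 0.60, Neurod1 to -0.16 and Nhlh2 to 6.33, and Nhlh1 passed at 7.85. The 204 Krt5 cells left had no UMI of Nhlh1 or Nhlh2, so the fitted sizes of those 2 carry no bound. Between the sexes, leaving out a library gave Neurog1 -0.36 to 0.11 and Nhlh2 -0.33 to 0.14 in the Mki67 gate, Neurod1 -0.12 to 0.18 and Nhlh1 -0.11 to 0.012 in the Tex15 gate, and Neurog1 -1.26 to 0.072 and Nhlh2 -0.17 to 0.13 in the Gap43 gate. Neurod1 in the Tex15 gate was -0.021 without TMM, -0.0070 with doublets kept and -0.00049 without male 2. Other causes of these shifts were not tested.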
